A study of Mus musculus with 4 samples.

Results

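The genes described are 9 that encode surface and junction proteins of endothelial cells, the cells that line blood vessels: Pecam1, Cdh5, Plvap, Cldn5, Emcn, Eng, Esam, Egfl7 and Robo4. They were taken as all probe sets that the platform's probe-to-gene table assigns to one of these genes alone, which gave 14 of the 45101 probe sets on the array. All 9 genes and all 14 probe sets passed the filter on low signals and were tested. Cdh5 and Eng had 2 probe sets each, Egfl7 had 4 and the other 6 genes had 1.

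Whole kidneys of mouse embryos at E14.5 (Theiler stage 22) were compared on 4 Affymetrix Mouse430_2 arrays. The wild-type group was 2 arrays, each with a pool of 2 kidneys, and its strain was given as CD-1. The mutant group was 2 arrays, each with a pool of 12 kidneys null for Wnt4 (allele Wnt4tm1Amc), and its strain was given as 129, although the shared protocol text speaks of CD-1 matings. Genotype, strain and pool size changed together and their parts in any difference cannot be told apart. The sex of the embryos was recorded as unknown, and no label says whether 2 pools of 1 genotype were drawn from different litters; the p-values therefore rest on how far these pools spread, which may be technical. Wnt4 is a secreted signal that the nephron-forming mesenchyme needs to turn into epithelium, and the design asks which transcripts depend on it. In this tissue RNA from endothelial cells is mixed with that of all other cells, and fewer endothelial cells and less RNA per endothelial cell cannot be told apart.

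Endothelial cells hold to each other through adherens junctions built on VE-cadherin (Cdh5) and through tight junctions that contain claudin 5 (Cldn5), with the immunoglobulin-family proteins PECAM-1 (Pecam1) and ESAM (Esam) at the same contacts. Their surface carries the sialomucin endomucin (Emcn), the diaphragm protein PLVAP of fenestrae and caveolae (Plvap), endoglin (Eng), a co-receptor for ligands of the TGF-beta family, and the guidance-type receptor Robo4. Egfl7 differs from the others in that its product is secreted and deposited in the vessel wall. In the embryonic kidney vessels run through the mesenchyme, and capillaries enter the cleft of the S-shaped body to form the glomerulus, where the podocytes lie against them.

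Trimming 2% of the values at either end gave a mean signal of 500.0 on every array, and median signals ran from 137.5 to 159.3. Wnt4 had signals of 1885 and 1769.9 in wild-type against 406 and 272 in mutant kidneys, and its log2 difference was -2.40 ± 0.18 (SE). Whether this probe set lies inside the deleted sequence was not examined, so it is a limited check of the labels. Of 7 genes on the array that mark embryonic kidney, all were tested and 1, Foxd1, was higher in the mutant (log2 difference 1.62). At the brightest probe set of each gene none was lower by limma at an adjusted p of 0.05. At an unadjusted p of 0.05, 3 were lower, namely Wt1 (-0.46), Sall1 (-0.40) and Wnt11 (-0.32). The 2 further tested probe sets of these kidney genes were both lower at an adjusted p of 0.05. Among all tested genes 5.82% were lower and 6.7% higher at that threshold. The 7 general endothelial markers Kdr, Tek, Tie1, Flt1, Erg, Cd34 and Icam2 were all tested, none was at 0, and their lowest signal on any array was 194. RNA quality was read from the 3' to 5' ratio of the transferrin receptor probe sets, which was 4.71 and 5.10 for wild-type against 5.67 and 6.43 for mutant pools. The same ratio was 0.777 and 0.750 against 0.753 and 0.744 for Gapdh and 1.59 and 1.43 against 1.56 and 1.54 for actin, which overlapped between genotypes. The part of RNA quality in the results was not tested.

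Of the 9 genes, 4 fell in the mutant kidneys, namely Cldn5, Plvap, Eng and Emcn, and 5 did not pass the test, namely Pecam1, Cdh5, Esam, Egfl7 and Robo4. The falls were between 1.35-fold and 1.84-fold. At the level of probe sets, 4 of 14 were lower and 0 higher, with limma's moderated test on log2(signal + 16) and Benjamini-Hochberg adjustment at 0.05 over all 27022 tested probe sets. At an unadjusted p of 0.05 the counts were 5 and 0. The share of all tested probe sets at that unadjusted threshold was not counted. Counts at it, here and for the gene lists, therefore cannot be set against the whole array. At the adjusted threshold 10.8% of all tested probe sets were called, 5.39% lower and 5.41% higher. With 1 probe set per gene, 5.82% of 13432 genes were lower and 6.7% higher, against 4 and 0 of the 9. Both mutant arrays lay below both wild-type arrays at 10 of the 14 probe sets, against 28% of all tested probe sets, and above them at 0 of the 14, against 26.1%. The median log2 difference of the 9 genes was -0.26, and that of all tested genes was 0.00. Without mutant replicate 1 the median of the 9 was -0.14. Log2 differences were negative for 9 of the 9 genes, or 8 with arrays centred on their medians, where that of Pecam1 was 0.0099, 7 without mutant replicate 1 and 8 without any 1 of the other arrays. Over all tested genes 49.98% were negative. As the genes were chosen with earlier results of these arrays known, these counts and medians describe the list and no test was made over it.

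**Figure D1:**
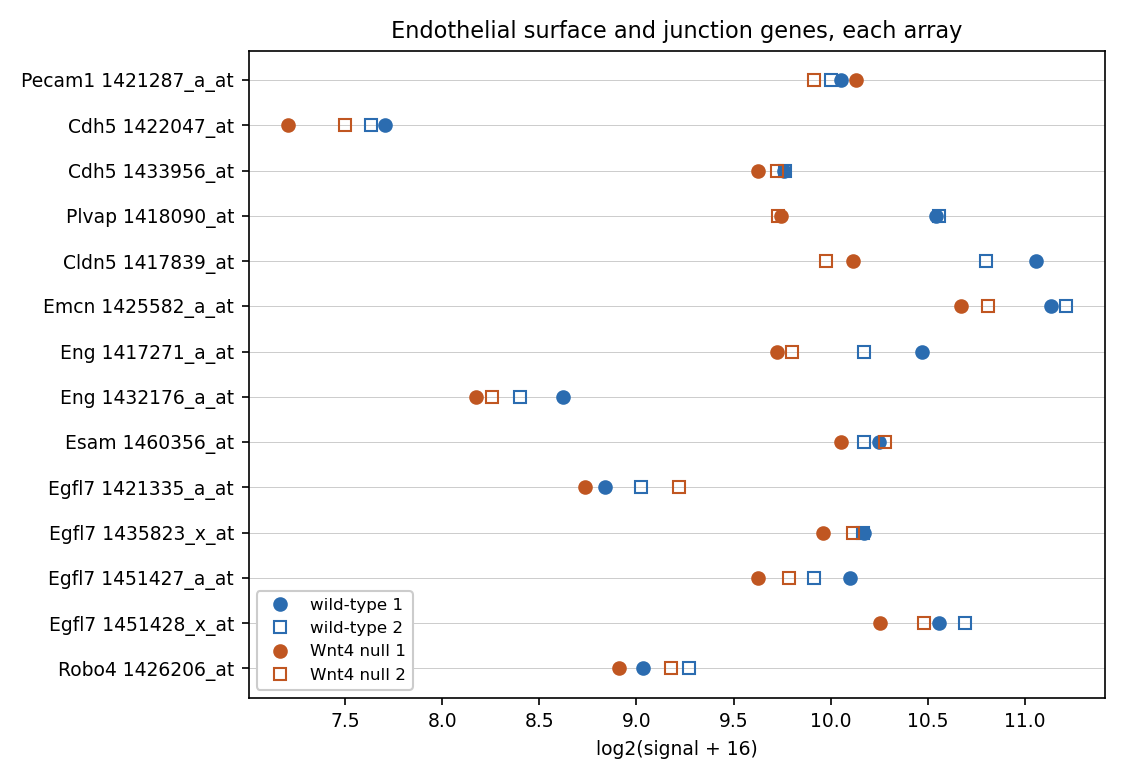
Signal of each of the 14 probe sets on each array, as log2(signal + 16), with wild-type arrays in blue, Wnt4 null arrays in orange, replicate 1 as filled circles and replicate 2 as open squares. The mutant symbols stand clear of the wild-type symbols for Plvap, Cldn5, Emcn and both probe sets of Eng, and are mixed with them for Pecam1, Esam, Robo4 and 1 probe set of Egfl7; positions of different probe sets along the axis are not comparable levels.

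Cldn5, the main claudin of endothelial tight junctions, showed the lowest log2 difference of the 9. Its signal was 2114 and 1767 in wild-type and 1091 and 992 in mutant kidneys. Neither mutant array came near the lower wild-type array, although the wild-type arrays differed from each other by more than the mutant arrays did. This amounted to a log2 difference of -0.88 ± 0.12 (SE, 2 arrays against 2) and a 1.84-fold lower signal (limma adjusted p = 0.00308). The call was lost without the intensity trend of the variance (adjusted p = 0.0622).

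Plvap, which forms the diaphragms of fenestrae and caveolae, read 1475 and 1490.45 in wild-type and 842 and 832 in mutant kidneys. Replicates nearly coincided in each genotype, with SDs of 10.9 and 7.16. Plvap thus differed by -0.81 ± 0.10 on the log2 scale, a 1.76-fold lower signal (limma adjusted p = 0.00223). Of the 4 genes it alone stayed past the threshold under all 13 alternative settings that apply to single probe sets, with adjusted p-values from 0.000758 to 0.0462.

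Endoglin, the co-receptor that binds BMP9 and BMP10 together with the receptor ALK1, was measured by 2 probe sets. At the brighter one Eng read 1404 and 1138 in wild-type and 828 and 876 in mutant kidneys. The groups did not overlap, but wild-type replicate 1 stood well above wild-type replicate 2. The log2 difference was -0.56 ± 0.13 (1.47-fold, limma adjusted p = 0.0301). At the dimmer probe set the signals were 378 and 322 against 273 and 290.2, also without overlap, with a log2 difference of -0.30 ± 0.18 and an adjusted p of 0.365. The call of the brighter probe set was lost without wild-type replicate 1 (adjusted p = 0.0615), mutant replicate 1 (0.136) or mutant replicate 2 (0.0857), with arrays centred on their medians (0.0518), with no filter (0.0593) and without the intensity trend (0.143). Nor was Eng called as the mean over its 2 probe sets.

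Emcn, the sialomucin endomucin of capillary and venous endothelium, read 2229 and 2355 in wild-type and 1614 and 1779 in mutant kidneys. All mutant values were below all wild-type values, and the distance between the groups was larger than that within either. Emcn thus differed by -0.43 ± 0.10 on the log2 scale, a 1.35-fold lower signal (limma adjusted p = 0.0267). The call was lost without mutant replicate 1 (adjusted p = 0.202) or mutant replicate 2 (0.0750). It was also lost without an intensity trend of the variance (0.157) or after median centring of the arrays (0.135).

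For Cldn5, Emcn and Eng, which fell, and for Robo4, which did not pass, the 250 bases before an annotated start are shown. The sequences are from RefSeq (GRCm38.p6, plus strand in each case, 5′ to 3′). Of the 9 genes 5 had an entry, with 3 starts for Egfl7 and 1 for each of the others; Pecam1, Cdh5, Plvap and Esam had none. Capitals mark AGGAAG on either strand (CTTCCT where it lies on the minus strand), a form of the sequence bound by ETS factors such as ERG and FLI1, which are known regulators of endothelial genes.
Cldn5, chr16:18776597-18776846: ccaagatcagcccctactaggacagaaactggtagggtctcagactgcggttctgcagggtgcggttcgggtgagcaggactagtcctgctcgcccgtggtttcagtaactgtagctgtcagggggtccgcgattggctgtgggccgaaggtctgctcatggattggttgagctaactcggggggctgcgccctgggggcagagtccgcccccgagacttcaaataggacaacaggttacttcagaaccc
Emcn, chr3:137340828-137341077: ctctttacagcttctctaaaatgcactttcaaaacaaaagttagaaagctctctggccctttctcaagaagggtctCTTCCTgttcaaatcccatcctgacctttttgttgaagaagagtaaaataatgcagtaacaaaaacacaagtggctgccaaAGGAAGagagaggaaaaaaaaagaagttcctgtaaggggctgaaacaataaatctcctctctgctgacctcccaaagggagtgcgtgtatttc
Eng, chr2:32646345-32646594: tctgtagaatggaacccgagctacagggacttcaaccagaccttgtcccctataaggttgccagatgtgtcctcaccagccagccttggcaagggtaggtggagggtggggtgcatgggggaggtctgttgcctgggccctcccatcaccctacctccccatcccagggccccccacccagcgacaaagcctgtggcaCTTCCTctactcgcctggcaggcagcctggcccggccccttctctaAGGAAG
Robo4, chr9:37401722-37401971: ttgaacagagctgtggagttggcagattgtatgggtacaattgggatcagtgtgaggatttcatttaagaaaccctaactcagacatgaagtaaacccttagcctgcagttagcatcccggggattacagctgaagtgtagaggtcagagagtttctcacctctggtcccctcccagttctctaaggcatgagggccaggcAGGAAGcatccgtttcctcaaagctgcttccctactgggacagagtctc

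AGGAAG was found in 5 of the 7 windows of these genes, with 2 matches each in those of Emcn and Eng, 1 in that of Robo4 and none in that of Cldn5. The windows at the 3 starts of Egfl7 held 3, 1 and 0 matches. As these 3 belong to 1 gene, the 7 windows are not independent units. Among all 32851 windows of this length in the RefSeq set, 29.5% held AGGAAG. The shorter core GGAA, which AGGAAG contains, was in 6 of the 7 windows and in 93.4% of all windows, and the Cldn5 window was the one without it. The form CCGGAA was in 0 of the 7 windows and in 12% of all. Of the other motifs searched on both strands, the GATA-factor motif AGATAA was in 0 of 7, against 9.99% of all windows. The TATA-box motif TATAAA was in 0 of 7, against 12.4%. ACAAAG (SOX factors) was in 2 of 7, against 16.5%, and CACCC (KLF factors) in 3 of 7, against 52%. Windows with AGGAAG thus belonged both to genes that fell and to Robo4, and a match or its lack in these windows says only which letters are there.

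The other junction genes did not pass the test. Pecam1, the adhesion protein PECAM-1 found at contacts of endothelial cells and on platelets and leukocytes, read 1048 and 1009.79 in wild-type and 1107 and 948 in mutant kidneys. The mutant values lay on either side of the wild-type values. Pecam1 differed by -0.01 on the log2 scale with a 95% interval from -0.28 to 0.27 (limma adjusted p = 0.983).

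Cdh5, the VE-cadherin gene, read 852 and 855 in wild-type and 773 and 829 in mutant kidneys at its brighter probe set. The mutant values were lower, but the log2 difference of -0.09 was small beside its interval from -0.36 to 0.17 (limma adjusted p = 0.689). At the dimmer probe set the signals were 193 and 183 against 131 and 165, with a difference of -0.32, an interval from -0.89 to 0.25 and an adjusted p of 0.485. The mutant arrays were again below the wild-type arrays without overlap.

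Esam, an immunoglobulin-family protein of endothelial tight junctions and platelets, read 1199.5 and 1136 in wild-type and 1048 and 1228 in mutant kidneys. Here 1 mutant array was the lowest and the other the highest of the 4. The log2 difference was -0.04 with an interval from -0.31 to 0.23 (limma adjusted p = 0.873).

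Robo4, the endothelial member of the Roundabout family, read 508 and 601 in wild-type and 465 and 563 in mutant kidneys. The groups overlapped, and within each genotype replicate 2 was the higher array. The log2 difference was -0.11 with an interval from -0.48 to 0.26 (limma adjusted p = 0.740). In the RefSeq annotation Robo4 and Esam lie on chromosome 9 with 2 genes, Robo3 and Msantd2, between them.

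Egfl7, which encodes the secreted protein EGFL7, had the most probe sets and they did not move alike. At its brightest probe set the signals were 1493 and 1635 in wild-type and 1204 and 1414 in mutant kidneys, a log2 difference of -0.26 with an interval from -0.52 to 0.01 (limma adjusted p = 0.206). A second probe set read 1083 and 951 against 775 and 865, with a difference of -0.30 and an adjusted p of 0.169 (unadjusted p = 0.0391). Another read 1139 and 1134 against 982 and 1094 (-0.13, adjusted p = 0.518). At these 3 probe sets the mutant arrays were below the wild-type arrays.

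The remaining probe set of Egfl7, its dimmest, read 441 and 504 in wild-type and 409.5 and 579.9 in mutant kidneys. The mutant values lay on either side of the wild-type values, with a log2 difference of 0.05 and an interval from -0.39 to 0.48. Probe sets of 1 gene can share transcripts, so these 4 are not independent measurements. Egfl7 is also the host gene of miR-126, a microRNA of endothelial cells, which these probe sets do not measure. Of the mature forms annotated within Egfl7 in RefSeq (GRCm38.p6), miR-126a-3p is shown with the seed, bases 2 to 8, in capitals.
mmu-miR-126a-3p, chr2:26591402-26591423, plus strand: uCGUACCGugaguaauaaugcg

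**Figure D2:**
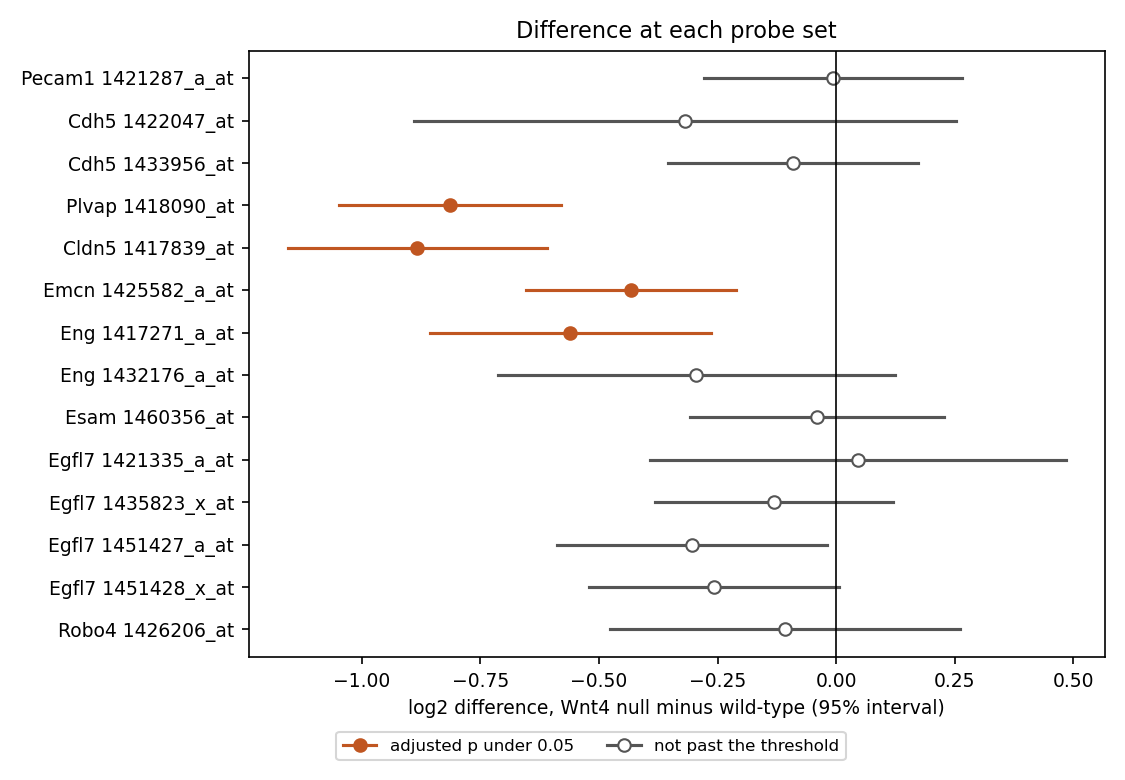
Log2 difference of each probe set, Wnt4 null minus wild-type, with its 95% interval from limma; filled orange points passed the adjusted p of 0.05 and open grey points did not. The 4 called probe sets lie between -0.88 and -0.43 with intervals below 0, and the intervals of 9 of the other 10 include 0.

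In order of their log2 difference at the brightest probe set the genes ran Cldn5, Plvap, Eng, Emcn, Egfl7, Robo4, Cdh5, Esam and Pecam1. The interval of each overlapped that of its neighbour in this order, and differences between neighbours were not tested. To set the genes against others of the same cell type, each probe set was also expressed relative to the mean log2 value of Pecam1 and Cdh5 on the same array and fitted across all probe sets, a choice made after both were seen to differ little. That mean was 9.91 and 9.88 on the wild-type and 9.88 and 9.82 on the mutant arrays.

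Relative to Pecam1 and Cdh5, Cldn5 was lower in the mutant by a log2 difference of -0.83 ± 0.11 (limma adjusted p = 0.00251) and Plvap by -0.77 ± 0.11 (adjusted p = 0.00265). Eng was lower by -0.51 ± 0.13 (adjusted p = 0.0394). Emcn, at -0.38 ± 0.10, did not pass (adjusted p = 0.0510). Esam at 0.0076, Robo4 at -0.06 and Egfl7 at -0.21 did not pass either, with adjusted p-values of 0.980, 0.883 and 0.351. Since the reference was chosen for its small difference, these values restate those above on another scale and are no further test.

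**Figure D3:**
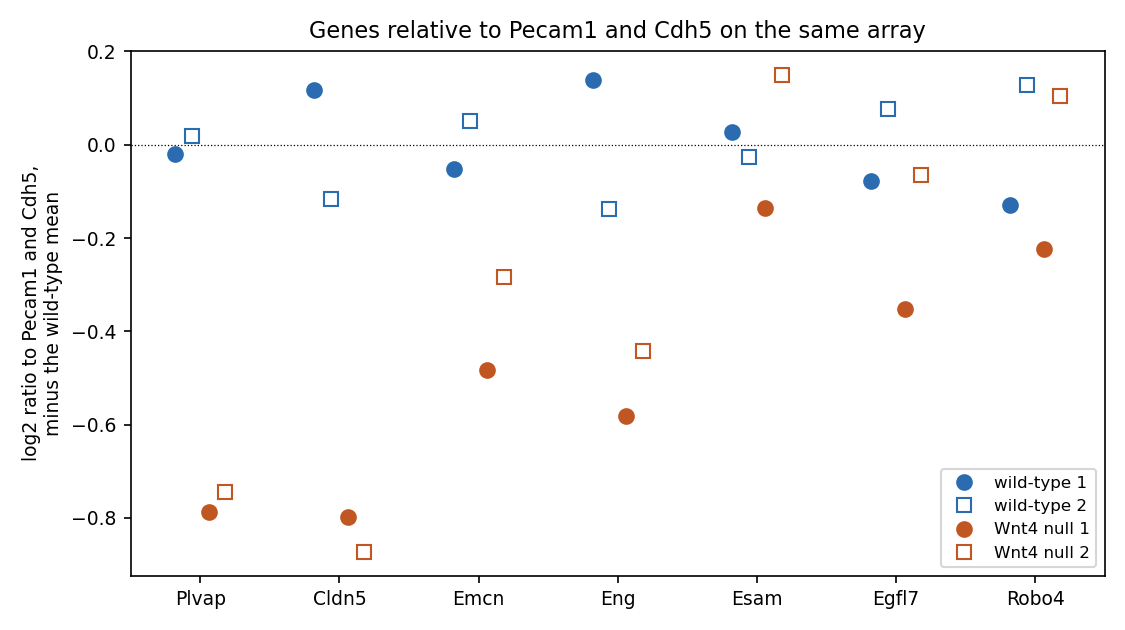
Log2 signal of 7 genes relative to the mean of Pecam1 and Cdh5 on the same array, drawn minus the wild-type mean of each gene, with arrays marked as wild-type (blue) or Wnt4 null (orange), replicate 1 filled and replicate 2 open. Both mutant arrays are far below the wild-type arrays for Plvap and Cldn5, below them for Emcn and Eng, and mixed with them for Esam, Egfl7 and Robo4.

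Among 47 other endothelial genes, all tested, 2 were lower (Ehd3 and Icam2) and 4 higher (Calcrl, Cd34, Gata2 and Lmo2), while 41 did not pass. Over all tested genes 5.82% were lower and 6.7% higher, so these counts lie near the shares of the whole array. The same shares apply beside the adhesion genes, receptors and factors below. Of 41 further tested probe sets of the 47 genes, 0 were lower and 2 higher. At an unadjusted p of 0.05 the counts were 10 lower and 7 higher, with no share of the whole array counted at that threshold. The median log2 difference of the 47 was -0.04 at the brightest probe sets and -0.14 with each gene as the mean over its probe sets. With those means Ehd3, Icam2 and Lyl1 were lower and Calcrl, Cd34, Gata2 and Lmo2 higher. The summed signal of the 47, in which bright genes weigh most, was 46303 and 46906 on the wild-type and 47649 and 47608 on the mutant arrays. The summed signal of the 9 surface and junction genes was 12322 and 11986 on the wild-type and 8971 and 9461 on the mutant arrays.

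The further surface and adhesion genes, a list of 12, held 2 that were lower and 1 higher. Ehd3, an EH-domain protein found in endothelium of the glomerulus, read 699 and 744 in wild-type and 379.7 and 416 in mutant kidneys (log2 difference -0.83 ± 0.14, limma adjusted p = 0.00814). Icam2, an adhesion molecule of endothelial cells, read 1183 and 1328 against 957 and 891 (-0.43, adjusted p = 0.0465). Cd34, a sialomucin of endothelial and blood progenitor cells that is also found on mesenchymal cells, rose from 1119.88 and 1311 to 2028 and 1924 (0.70 ± 0.11, adjusted p = 0.00615). The calls of Ehd3 and Cd34 were lost without the intensity trend (limma adjusted p = 0.0506 and 0.0823). Cd99l2, at 0.31, did not pass. The groups did not overlap for any of these 4 genes, which were picked for their small p. Of all 12, the mutant arrays lay below the wild-type arrays for 3 and above them for 3. Over all tested probe sets these shares were 28% and 26.1%. The call of Icam2 was lost after median centring (limma adjusted p = 0.169), with no filter (0.0741) and without the intensity trend (0.165). It was also lost with the replicate block (0.0530) and without wild-type replicate 2 or either mutant replicate.

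Of 18 receptors and signalling genes, 0 were lower by limma and 1 was higher, with 3 and 1 at an unadjusted p of 0.05. Calcrl, the receptor for adrenomedullin, rose from 698 and 869 to 1307 and 1246 (0.70 ± 0.13, adjusted p = 0.0131), with a call that depended on mutant replicate 1 (0.0679 without it). Tek, the angiopoietin receptor, at 1039.5 and 977 against 816 and 793 (-0.32, adjusted p = 0.113), Clec14a (-0.55) and Ramp2 (-0.26) did not pass. The VEGF receptors Kdr and Flt1 had log2 differences of -0.26 and -0.48 (adjusted p = 0.412 and 0.252).

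Of 17 transcription factors and intracellular proteins, 0 were lower by limma and 2 higher, with 5 and 4 at an unadjusted p of 0.05. Gata2, a zinc finger factor of endothelial and blood cells, rose from 1066 and 963 to 1689 and 1582 (0.68 ± 0.11, adjusted p = 0.00596). Lmo2, its LIM-domain partner, rose from 705 and 764 to 1023 and 982 (0.44, adjusted p = 0.0465), a call lost without wild-type replicate 1 (adjusted p = 0.0804), mutant replicate 1 (0.245) or mutant replicate 2 (0.170). Lyl1 (-0.80, adjusted p = 0.0543) and Elk3 (0.44, adjusted p = 0.0579) did not pass. The ETS factor gene Erg read 392 and 388 against 293 and 278 (-0.43, adjusted p = 0.152).

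Genes of arteries and of veins and lymphatics were few. Among all tested genes 5.82% were called lower and 6.7% higher. Of 4 tested arterial genes, 2 were lower and 0 higher (3 and 0 at an unadjusted p of 0.05). Hey1, a Notch target that the forming nephron also expresses, fell from 1219 and 1066 to 506 and 509 (-1.14 ± 0.13, limma adjusted p = 0.00112), and the gap junction gene Gja4 from 581 and 603 to 345 and 410.0 (-0.63 ± 0.15, adjusted p = 0.0365). The call of Gja4 was lost with no filter (limma adjusted p = 0.0639) and without the intensity trend (0.0993). It was also lost without wild-type replicate 2 or either mutant replicate. Hey2 (-0.59) and Efnb2 (0.05) did not pass. Of 3 tested venous and lymphatic genes, Nr2f2, a nuclear receptor of venous endothelium that stromal cells express too, was higher (0.41, adjusted p = 0.0492). That call was lost without mutant replicate 1 (adjusted p = 0.341), after median centring (0.122), with a pseudocount of 1 (0.0510), with no filter (0.105) and without the intensity trend (0.224). The genes Lyve1 (0.60) and Ephb4 (0.44) did not pass, and 0 were lower (0 lower and 3 higher at an unadjusted p of 0.05). Of 5 further tested probe sets of the venous and lymphatic genes, 2 were called higher and 0 lower. Of 3 further ones of the arterial genes 0 were called.

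**Figure D4:**
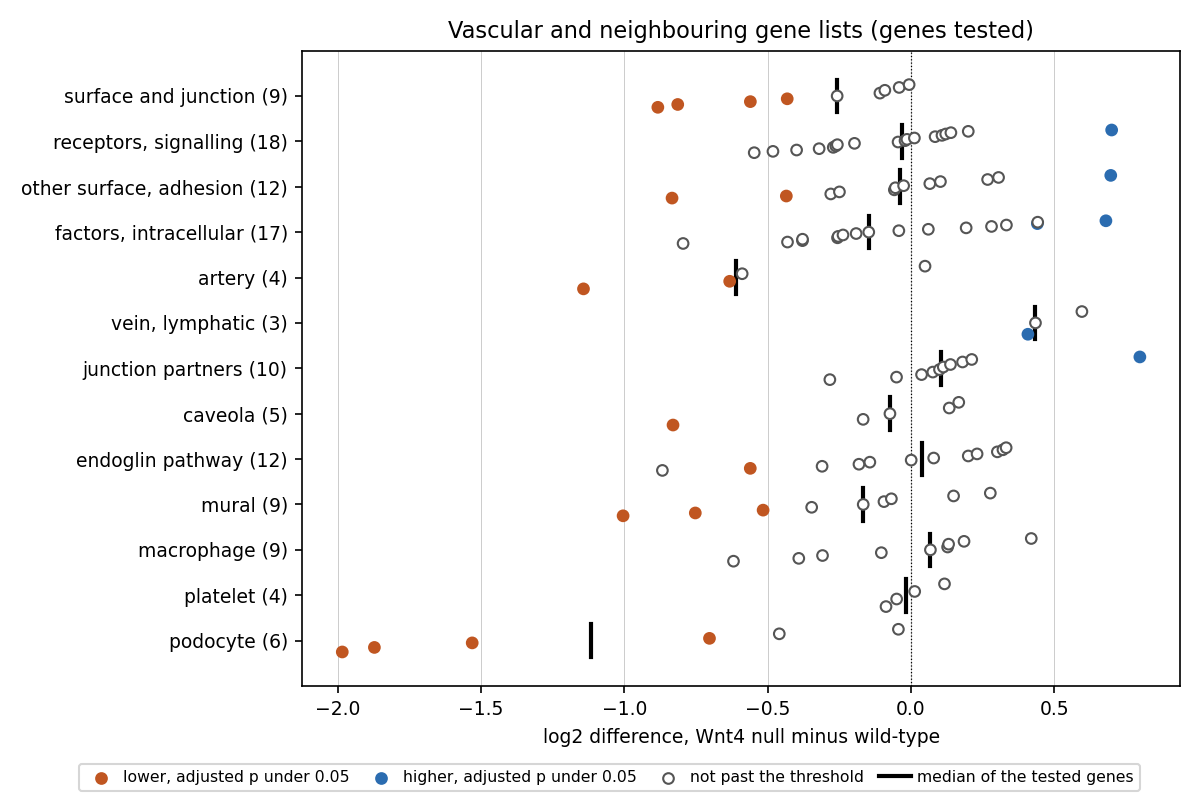
Log2 difference, Wnt4 null minus wild-type, of every tested gene in 13 gene lists, 1 point per gene at its brightest probe set, with the number tested after each name; orange points were lower and blue points higher at an adjusted p of 0.05, open points did not pass, and the black bar is the list's median. The 9 surface and junction genes lie at or below 0, while the other endothelial lists spread to both sides of it.

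Partners of the members were examined by list as well, beside shares of 5.82% lower and 6.7% higher among all tested genes. Of 10 tested cytoplasmic partners and regulators of endothelial junctions, Cdh2, N-cadherin, was higher (from 1623 and 1899.9 to 3304 and 2850.03; 0.80 ± 0.11, limma adjusted p = 0.00401) and 0 were lower (0 at an unadjusted p of 0.05). Cdh2 is also a cadherin of mesenchyme and nephron epithelium, and its call was lost without the intensity trend (limma adjusted p = 0.0775). Of 10 further tested probe sets of the partner genes, 1 was called higher and 0 lower. The catenin genes Ctnnb1 (0.04), Ctnnd1 (0.18) and Jup (-0.28) and the afadin gene Afdn (0.14) did not pass. Of 5 caveola genes, Cavin2 fell from 1052 and 1081 to 632 and 556 (-0.83 ± 0.12, adjusted p = 0.00464), and 0 were higher (0 at an unadjusted p of 0.05). The call of Cavin2 was lost without the intensity trend (limma adjusted p = 0.0540). Cavin1 (0.17), Ehd2 (-0.17) and Cav2 (0.13) did not pass. Of 6 further tested probe sets of the caveola genes, however, 2 were called lower and 0 higher. Cav1, the main caveolin, had a difference of -0.07 and an adjusted p of 0.683.

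Of 12 tested genes of the endoglin pathway, Id1, a target of BMP signalling, fell from 2663 and 2770.2 to 1881 and 1794 (-0.56 ± 0.09, limma adjusted p = 0.00624), with a call that depended on mutant replicate 2 (0.0547 without it). None was called higher, while 4 were higher and 3 lower at an unadjusted p of 0.05. Bmpr2 (0.33, adjusted p = 0.0501, but -0.43 as the mean over its probe sets), Id3 (-0.31, adjusted p = 0.0558) and Tgfb1 (-0.87, adjusted p = 0.0663) did not pass. Tgfb1 did pass after median centring (0.00770), without wild-type replicate 2 (0.00227) and without mutant replicate 1 (0.0248). The list median was 0.04 and its mean -0.05. Of 12 further tested probe sets of these genes, 1 was called lower and 0 higher. Among all tested genes 5.82% were called lower and 6.7% higher.

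Of 8 ligand genes for vascular receptors, Cxcl12 (0.63), Vegfc (0.84) and Pgf (1.89) were higher and 0 lower (3 higher and 1 lower at an unadjusted p of 0.05). The limma adjusted p was 0.00269, 0.0103 and 0.0419 in this order. Without the intensity trend all 3 lost their calls (0.0748, 0.0595 and 0.144). Of 7 further tested probe sets of the 8 genes, 1 was called lower and 2 higher. Among all tested genes 5.82% were called lower and 6.7% higher. Pgf read 51.3 and 48.1 in wild-type, under the filter's level of 94.2, against 400 and 127 in mutant kidneys. It entered the test through its mutant arrays alone, so its difference rests on a dim group, and its call was lost with no filter (adjusted p = 0.111). The call of Vegfc was lost without mutant replicate 2 (adjusted p = 0.0715) and that of Pgf without mutant replicate 1 (0.259), where its difference was 1.12. Vegfa, the main growth factor for endothelial cells, read 955 and 1009.6 in wild-type and 995 and 911 in mutant kidneys (-0.04, adjusted p = 0.860). As the mean over all its tested probe sets, however, Vegfa was lower (-0.54, limma adjusted p = 0.0258), so its probe sets disagree. Angpt2 (-0.38) did not pass.

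Markers of other cells were measured on the same arrays, since several of the 9 genes are also expressed outside endothelium. Of 9 tested macrophage genes, 0 were called by limma in either direction (2 lower and 0 higher at an unadjusted p of 0.05), and the summed signal was 4210.3 to 4513 in wild-type and 4294 to 4471 in mutant kidneys. Ptprc (-0.62), Lyz2 (-0.39), C1qa (0.42) and Csf1r (0.19) had the smallest p-values. Of 4 tested platelet genes, which matter for Pecam1 and Esam, 0 were called (0 at an unadjusted p of 0.05). The platelet sum was 1614 to 1651 in wild-type and 1471 to 1700.4 in mutant kidneys, and log2 differences of Itga2b, Gp1bb, Pf4 and Gp5 lay between -0.09 and 0.12. None of the macrophage or platelet genes was at 0.

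Markers of mural cells, the pericytes and smooth muscle cells around vessels, and of podocytes were read as well. Of 9 mural genes, 6 did not pass, while Rgs5 (907 and 1057 against 506 and 651), Tagln (728 and 711 against 449 and 273) and Acta2 (4406 and 4971 against 3664 and 2916) were lower by limma (adjusted p = 0.0196, 0.0245 and 0.0320) and 0 higher (3 and 0 at an unadjusted p of 0.05). The mural sum was 11670 to 12446 in wild-type and 9888 to 10199 in mutant kidneys, and Notch3, at a log2 difference of 0.28, did not pass. The call of Rgs5 was lost without the intensity trend (limma adjusted p = 0.112) and without mutant replicate 1. Those of Tagln and Acta2 were lost with no filter (0.0604 and 0.0778), without the intensity trend (0.124 and 0.184) and without mutant replicate 2. Acta2 also lost its call after median centring (0.0621). Of 6 tested podocyte genes 4 were lower and 0 higher (5 and 0 at an unadjusted p of 0.05), with Podxl, a sialomucin that endothelial cells also carry, at -1.98, Ptpro at -1.87 and Nphs1 at -1.53. Synpo, at -0.70, lost its call with no filter (limma adjusted p = 0.0524) and without the intensity trend (0.0768). It also did so without wild-type replicate 2 or either mutant replicate. The podocyte sum was 7971 to 8301 in wild-type and 4139.6 to 4471 in mutant kidneys. Of further tested probe sets, 2 of 9 for mural and 3 of 3 for podocyte genes were called lower and 0 higher. Among all tested genes 5.82% were called lower and 6.7% higher.

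Red cell genes went the other way. Of 5 tested, Hba-x (2.16), Hbb-y (1.08) and Hbb-bh1 (71.98 and 94.95 against 559 and 652) were higher and 0 lower by limma (3 higher and 0 lower at an unadjusted p of 0.05), and the summed signal was 9972 to 10175 in wild-type and 22745 to 23796 in mutant kidneys. The wild-type mean of Hbb-bh1 was 83.5, under the filter's level of 94.2. It passed the filter through its mutant arrays, so its difference rests on a dim group. Alas2, at 0.30, did not pass. Of 5 further tested probe sets of the red cell genes, 4 were called higher and 0 lower. Among all tested genes 6.7% were called higher and 5.82% lower. No marker of these 3 lists was at 0. The podocyte genes (4 of 6), mural genes (3 of 9) and red cell genes (3 of 5) that passed thus moved with genotype beside Cldn5, Plvap, Eng and Emcn, and their part in the falls was not tested.

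Genes with the pattern nearest to that of the 9 were sought by Euclidean distance between centred log2 values on the 4 arrays. The mean pattern of the 9 was 0.19 and 0.16 on the wild-type and -0.21 and -0.14 on the mutant arrays. The nearest of 13423 other genes were Mrpl23, Zc3h3, Aprt, Hltf and 2810004N23Rik, at distances from 0.0197 to 0.0341. Of the 9 genes themselves Cldn5 lay farthest from their mean, at 0.573. Of the 13423 other genes 8397 lay within that distance. Pecam1, at a log2 difference of -0.01, also lay within it, at 0.406. The count therefore takes in genes that differ little and does not say how many share the mean pattern.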

How the data were processed

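For each array the authors deposited a linear signal intensity per probe set, from GCOS per the submitters' processing notes; how probes were summarised and scaled is not stated there. Signals were taken as log2(signal + 16), a scale that understates the change of dim genes. The 64 control probe sets and the lowest 40% by mean log2 value were left out, which left 27022 probe sets with a mean level above a signal of 94.2. Groups were compared with limma 3.58.1 in R 4.3.3 (lmFit, eBayes with an intensity trend, two-sided), tested on simulated data, with Benjamini-Hochberg adjustment over all tested probe sets and a threshold of 0.05. The spread comes from 2 arrays per group, and an exact test of 2 against 2 cannot go below p = 0.333.

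Genes were named through the platform annotation of 2016, and 34754 of the 34958 probe sets with 1 gene matched a RefSeq table of GRCm38.p6; 932 had several genes and 9211 were not listed. A gene is given by its brightest tested probe set, and for the 9 genes every probe set is given. The 15 other gene lists cover endothelial receptors, adhesion genes and factors, arteries, veins and lymphatics, junction partners, caveolae, the endoglin pathway, mural cells, macrophages, platelets, red cells, podocytes, kidney tissue and vascular ligands. The members and the lists were chosen with earlier results of these data known. From each list up to 4 genes with the smallest p were named, with the 5 genes nearest in pattern; Kdr, Flt1, Cav1, Ctnnb1 and Vegfa were added after their values were seen. The alternatives changed the scaling (quantile or median centring), the pseudocount (1 or 64), the filter (none or 60%), the variance model (no trend, or robust), the unit per gene (its mean over probe sets) or the arrays used (each left out), or added the replicate number as a block. The ratio to Pecam1 and Cdh5 was added after seeing the data. The depth behind a signal is not known for arrays, and the number of arrays limits the precision.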

Additional observations from a re-analysis of the deposited data

How the results depend on the processing

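Among the 9 genes the count called lower was 4, and it was 2 with arrays centred on their medians (Cldn5 and Plvap), 1 without an intensity trend (Plvap), 3 with no filter or as means over probe sets (Cldn5, Emcn and Plvap in both) and 2 to 4 when 1 array was left out; the counts of probe sets were the same where they could be made, and 0 were higher under every alternative run. Leaving out 1 array moved the median log2 difference of the 9 genes to between -0.37 and -0.14. Pecam1 changed sign with arrays centred on their medians (0.0099), and Esam did so relative to Pecam1 and Cdh5 (0.0076). When 1 array was left out Pecam1 ran from -0.12 to 0.10, Esam from -0.15 to 0.072, Robo4 from -0.24 to 0.026 and the dimmest probe set of Egfl7 from -0.20 to 0.29. Of the other named genes, Efnb2 ran from -0.0043 to 0.10, Gp5 from -0.16 to 0.19, Pf4 from -0.19 to 0.093, Ctnnb1 from -0.0018 to 0.077 and Vegfa from -0.11 to 0.019 when 1 array was left out. As means over their probe sets Bmpr2 (-0.43), Cav2 (-0.084), Ctnnb1 (-0.025), Efnb2 (-0.041) and Gp1bb (0.061) changed sign. The cause of these changes was not tested. Of the 47 other endothelial genes, 1 was lower with no filter on low values (Ehd3) and 1 with the replicate block (Ehd3). Without an intensity trend 1 was lower, Lyl1, and 0 higher, so that the 6 genes called otherwise all lost their calls (Ehd3 at an adjusted p of 0.0506). When 1 array was left out 1 to 2 were lower and 2 to 5 higher. Over all tested probe sets the calls fell from 2920 to 858 without the intensity trend, to 1479 without mutant replicate 1 and to 1550.0 without mutant replicate 2.

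The replicate numbers of the titles pair nothing that the labels name, and the deviations of same-numbered arrays correlated at -0.02 across tested probe sets. With the replicate block 4 of the 9 genes were lower, as without it, while among the other endothelial genes Icam2 (adjusted p = 0.0530) and Lmo2 (0.0568) no longer passed. Aprt (0.0579) was lost too, and Tgfb1 (0.00417), Wt1 (0.0166) and Sall1 (0.0370) newly passed. Over 1168 refitted values of named genes, 1040 kept their direction and side of the threshold, 78 lost their call, 23 of them without the intensity trend, and 20 changed sign, all in genes that had not been called; the rest newly passed the threshold. With 2 arrays per genotype the intervals limit what small differences, such as those of Cdh5 or Robo4, can show.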
